A study of Mus musculus with 15 samples.

Results

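In DNA of mouse embryonic stem cells, 1730 of the 17951 autosomal windows of 2 kb that hold at least 60 CG dinucleotides were read as unmodified and carried almost no 5-hydroxymethylcytosine (5hmC). These 5hmC-poor windows were selected on measured values. They had fewer than 0.2 hmTOP-seq reads per CG in the 2 libraries of 500 ng summed, and at least 5 reads per CG in the 3 uTOP-seq libraries summed over both strands. They make up 9.64% of the CG-dense windows and hold 194167 of the 20383623 autosomal CGs. The 1197510 autosomal windows with any CG form the whole series. Of the other CG-dense windows, 10907 met the uTOP-seq minimum with 5hmC at or above the limit and are called 5hmC-bearing here. A further 2632 windows were low in both readouts.

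The cells were of the line E14TG2a, a male embryonic stem cell line kept without feeder cells on gelatin, with serum and leukaemia inhibitory factor. In hmTOP-seq, the phage enzyme BGT puts an azide sugar on 5hmC, an oligonucleotide is clicked onto it, and a polymerase primes from the oligonucleotide so that reads start at the modified CG. Labelled libraries were made from 500, 50 and 5 ng of DNA in 2 technical replicates per input, and the same number of control libraries per input was made leaving out the BGT step. In uTOP-seq, reads start at unmodified CGs (uCGs), and 3 libraries were made from 300 ng. All libraries are technical replicates, so errors and p-values measure the spread between library preparations and say nothing of other cultures.

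Most mammalian CGs are methylated, whereas CpG islands, the CG-rich stretches at the starts of many genes, are mostly free of methylation. TET enzymes oxidise 5-methylcytosine to 5hmC, so a cytosine that is never methylated gives no substrate. In embryonic stem cells 5hmC is known from enhancers, from gene bodies, and from the borders of CpG islands, and the islands of genes held by Polycomb are known to bind TET1.

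To show what such a window looks like, 200 bases just upstream of the annotated start are printed for the first 4 of the longest runs of neighbouring 5hmC-poor windows that have a single protein-coding start, with no annotated exon in the stretch. All sequences are from GRCm38 (mm10) and read 5′ to 3′ along the gene, with CGs in capitals.

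Spry2 (chr14:105896820-105897019, - strand): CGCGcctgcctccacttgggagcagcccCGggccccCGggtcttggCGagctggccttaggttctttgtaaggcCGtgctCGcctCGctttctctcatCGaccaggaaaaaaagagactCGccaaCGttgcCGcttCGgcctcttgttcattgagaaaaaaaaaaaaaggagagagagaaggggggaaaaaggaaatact

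Ier2 (chr8:84662853-84663052, - strand): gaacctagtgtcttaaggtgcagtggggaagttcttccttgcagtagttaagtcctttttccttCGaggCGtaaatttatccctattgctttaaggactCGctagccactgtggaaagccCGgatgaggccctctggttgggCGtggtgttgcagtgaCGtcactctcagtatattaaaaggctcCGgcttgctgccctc

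Mycn (chr12:12941915-12942114, - strand): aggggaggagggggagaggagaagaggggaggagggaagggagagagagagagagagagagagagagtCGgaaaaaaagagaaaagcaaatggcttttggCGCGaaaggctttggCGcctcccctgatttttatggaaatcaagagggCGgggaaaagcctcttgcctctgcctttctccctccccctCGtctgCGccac

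Arrdc3 (chr13:80883184-80883383, + strand): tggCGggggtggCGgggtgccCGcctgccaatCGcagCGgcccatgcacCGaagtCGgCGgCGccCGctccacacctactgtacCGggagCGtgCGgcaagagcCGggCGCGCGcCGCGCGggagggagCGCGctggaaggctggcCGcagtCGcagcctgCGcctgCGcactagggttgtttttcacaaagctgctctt

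The 4 stretches hold 13, 7, 7 and 26 CGs in this order. No hmTOP-seq read started at any of them in the 6 labelled libraries. The uTOP-seq libraries gave 39, 25 and 21 reads in the Spry2 stretch and 52, 64 and 40 in that of Arrdc3. In the Ier2 stretch they gave 51, 58 and 37 reads, and in the Mycn stretch 13, 12 and 7. The stretch of Ier2 holds the letters TGACGTCA. The reference soft-masks 129 of the 200 bases of Mycn and 47 of those of Spry2 as repeat, and none of the others.

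For contrast, the same stretch is shown for a germline gene and for a lineage regulator, those with the highest 5hmC per CG at 50 ng of their lists among CG-dense start windows with enough uTOP-seq reads and no exon in the stretch. Mov10l1 is an RNA helicase of the germline piRNA pathway, and Hand1 is a transcription factor of the heart and the trophoblast.

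Mov10l1 (chr15:88982709-88982908, + strand): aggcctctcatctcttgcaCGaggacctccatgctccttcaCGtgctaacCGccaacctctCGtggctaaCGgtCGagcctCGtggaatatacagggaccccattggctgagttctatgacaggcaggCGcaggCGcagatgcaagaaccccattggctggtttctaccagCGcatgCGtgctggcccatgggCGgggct

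Hand1 (chr11:57832819-57833018, - strand): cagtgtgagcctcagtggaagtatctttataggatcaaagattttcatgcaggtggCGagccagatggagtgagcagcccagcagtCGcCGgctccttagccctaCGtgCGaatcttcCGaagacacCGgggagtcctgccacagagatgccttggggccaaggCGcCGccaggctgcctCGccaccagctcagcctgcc

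The 12 CGs of the Mov10l1 stretch gave 155 and 146 hmTOP-seq reads from 500 ng, 81 and 93 from 50 ng, and 29 and 39 from 5 ng. The 10 CGs of the Hand1 stretch gave 101 and 102 reads from 500 ng, 84 and 47 from 50 ng, and 25 and 63 from 5 ng. Both stretches were also read by uTOP-seq, with 49, 63 and 30 reads at Mov10l1 and 28, 27 and 20 at Hand1, so 5hmC and unmodified cytosines were both found there.

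Outside the edges of these 4 runs 5hmC was read again. For each run, the CG with the most hmTOP-seq reads from 500 ng outside annotated exons and within 6 kb of an edge is shown in capitals with 20 bases on either side.

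Spry2 edge (chr14:105889678-105889719, - strand): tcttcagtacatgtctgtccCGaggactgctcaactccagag

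Ier2 edge (chr8:84669538-84669579, - strand): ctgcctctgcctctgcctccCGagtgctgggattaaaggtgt

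Mycn edge (chr12:12948572-12948613, - strand): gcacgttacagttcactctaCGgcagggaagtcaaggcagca

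Arrdc3 edge (chr13:80890347-80890388, + strand): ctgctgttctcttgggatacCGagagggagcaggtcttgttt

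The CG near Spry2 lies 4303 bp outside the run on the gene-body side and gave 46 and 34 reads from 500 ng, 21 and 32 from 50 ng, and 0 and 11 from 5 ng. The CG near Mycn lies 4592 bp outside the upstream edge and gave 50 and 30, 24 and 19, and 29 and 0 reads at the same inputs. The CG near Ier2, 3558 bp upstream, gave 18 and 25, 9 and 17, and 14 and 0 reads, and all 42 bases shown for it are soft-masked as repeat in the reference, as are 22 of those near Mycn. The CG near Arrdc3, 2367 bp into the gene-body side, gave 7 and 11, 6 and 6, and 6 and 0 reads. None of the 4 CGs had a read in a control library. The replicates of 5 ng often disagreed on a single CG, so single CGs are read here from the 500 ng and 50 ng libraries.

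Read totals were 32502791 and 31918445 for the 500 ng libraries, 23027170 and 22052535 for 50 ng, 14884939 and 15277636 for 5 ng, and 20120568 to 28412885 for uTOP-seq. The 6 controls held 3409 to 10072 reads each. Duplicate reads were recognised by position and length and not by molecular tags, so intervals on counts cover counting error only.

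The 5hmC-poor windows were low in every labelled library, also in the libraries that had no part in choosing them. They gave 0.0484 and 0.0488 reads per CG at 500 ng, which is the selection itself and is given as a description. At 50 ng they gave 0.0436 and 0.0407 reads per CG, and at 5 ng 0.0284 and 0.0351. The other 16221 CG-dense windows gave 0.820 and 0.771 from 50 ng and 0.501 and 0.511 from 5 ng. They include the 2632 windows low in both readouts, which gave less than the 5hmC-poor windows, 0.0187 and 0.0201 from 50 ng. The ratio of all 16221 to the 5hmC-poor windows was 18.8 and 18.9 from 50 ng and 17.6 and 14.6 from 5 ng. As wholes, the groups were thus far apart in each of the 4 libraries. The mean log2 ratio was −4.12 ± 0.18 (SD, n = 4 libraries), with p = 0.13 in an exact two-sided sign-flip permutation test, the smallest that 4 libraries allow. A p of this size cannot pass 0.05, and the same DNA went into the libraries that chose the windows.

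Divided by the mean over all autosomal CGs of the same library, a quantity called the relative level from here on, the 5hmC-poor windows stood at 0.0311 ± 0.000601 from 500 ng, 0.0385 ± 0.000653 from 50 ng and 0.0434 ± 0.00563 from 5 ng (SD, n = 2 each). Their uTOP-seq relative level was 2.35 ± 0.0476 (SD, n = 3), and that of the 5hmC-bearing windows was 2.62 ± 0.0410. Both kinds of window were chosen with a uTOP-seq minimum, so levels above the autosomal mean were set by the selection. The 5hmC-poor windows held 0.953% of autosomal CGs and 0.0292% of the reads of the first 500 ng library (95% Clopper-Pearson interval 0.0286 to 0.0298). In the controls they held 66 and 70 reads from 500 ng, 22 and 12 from 50 ng, and 15 and 12 from 5 ng, which is 0.267 to 0.797 of the autosomal mean per CG. Their share of control reads was thus lower than their share of CGs, but by far less than in the labelled libraries.

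**Figure D1:**
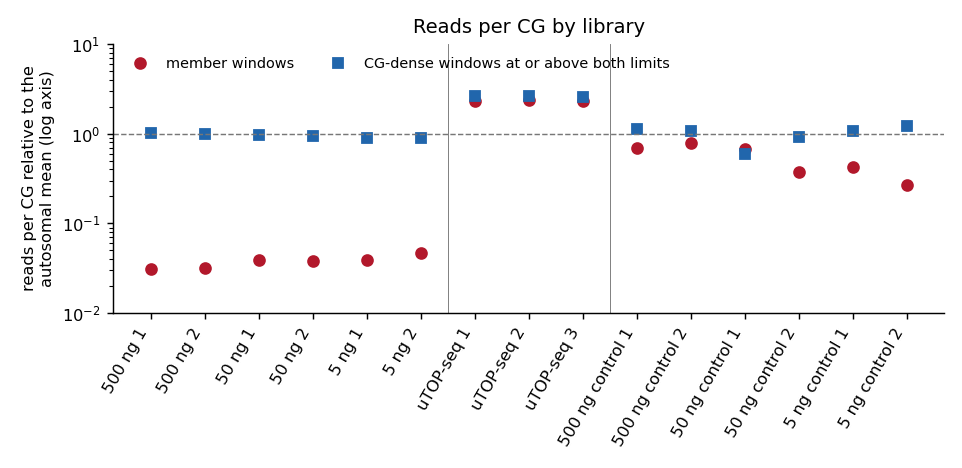
Reads per CG of the 5hmC-poor windows (red circles, member windows) and the 5hmC-bearing windows (blue squares) in each library, divided by the mean over all autosomal CGs of that library, on a log axis with a dashed line at 1. In the 6 labelled libraries the red points lie between 0.0306 and 0.0474, and in the 3 uTOP-seq libraries between 2.31 and 2.40; the controls, with few reads each, lie between 0.267 and 0.797.

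The windows were poor in 5hmC rather than empty of it. Only 22 of the 1730 had no read in any of the 6 labelled libraries, 236 had none from 50 ng and 982 none from 5 ng. At the level of single CGs, 2.79% and 2.90% of those inside the windows had a read in the 500 ng libraries, and 0.664% had one in both. In all CG-dense windows at or above the limit, 26.5% and 26.8% of the 1218562 CGs had a read, and 233777 CGs had one in both. Summed over the replicates of 50 ng, the windows ran from 0 to 0.653 reads per CG with a median of 0.0637. Of the 1730, 1533 (88.6%) were below 0.2 also at this input, against 1204 of 13589 CG-dense windows (8.86%) at or above the limit.

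The remaining reads lay away from the gene start. Within 250 bp of the nearest protein-coding start the windows gave 0.0169 and 0.0172 reads per CG at 500 ng, and at 1 to 2 kb from it 0.134 and 0.137. At 50 ng the same comparison gave 0.0129 and 0.0122 against 0.13 and 0.12, and at 5 ng 0.00719 and 0.00947 against 0.0852 and 0.104. The uTOP-seq readout changed far less: divided by the autosomal mean it was 2.14 to 2.23 near the start and 2.50 to 2.62 farther out over the 3 libraries.

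The windows without any labelled read and with the most CGs were those of Hnrnpu, Atxn2l, Nufip2, H3f3a and Tob1. Hnrnpu codes for a nuclear RNA-binding scaffold protein and H3f3a for the replication-independent histone H3.3. The window of Hnrnpu (chr1:178336001-178338000) holds 222 CGs and had 522, 309 and 292 uTOP-seq reads. A count of 0 in a library allows up to 3 reads, or 0.0135 reads per CG there. Atxn2l, with 178 CGs, had 510, 403 and 304 uTOP-seq reads. Arhgap21, Maco1 and Mex3b, with 201 to 203 CGs, also had no read from 50 or 5 ng, and 3 and 4, 3 and 4, and 3 and 0 from 500 ng.

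At the other end, the window of Rpl23, a protein of the large ribosomal subunit, had the most reads per CG at 50 ng. Its 75 CGs gave 6 and 4 reads from 500 ng, 36 and 13 from 50 ng, and 0 and 1 from 5 ng. Lyst, a regulator of lysosome traffic, gave 3 and 9 from 500 ng, 35 and 23 from 50 ng, and 2 and 0 from 5 ng. Ankhd1, an ankyrin-repeat protein, gave 5 and 5, 16 and 20, and 2 and 0 over 62 CGs. Dnajc19, a part of the mitochondrial import motor, gave 5 and 6, 10 and 22, and 0 and 0, and Esrp1, an epithelial splicing factor, gave 9 and 7, 9 and 38, and 0 and 4. The 50 ng excess in these windows was seen in both replicates of Rpl23, Lyst, Ankhd1 and Dnajc19 and in 1 of 2 for Esrp1, and none of them was high at 5 ng.

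Windows on both sides of the limit overlapped in their 50 ng reads. Just inside it stood Prdm16 with 20 and 24 reads over 221 CGs at 500 ng, or 0.199 per CG summed, followed by Ube2w with 16 and 12 over 141 CGs. Exactly at 0.2 and therefore outside it stood Ywhah with 8 and 22 reads over 150 CGs and Tpbg with 11 and 17 over 140. At 50 ng, which did not decide membership, Prdm16 had 10 and 1 reads, Ube2w 1 and 14, Ywhah 6 and 9, and Tpbg 13 and 20. At Tpbg 1 control library of 50 ng also had 7 reads, while the other named windows next to the limit had none in any control.

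The share of CG-dense windows that were 5hmC-poor rose with the number of CGs. It was 4.18% of the 8494 windows of 60 to 79 CGs, 9.54% at 80 to 99, 14.7% at 100 to 119, 20.3% at 120 to 149, and 23.2% of the 1133 windows of 150 or more. The 5hmC-poor windows had 112 ± 35.4 CGs (SD, n = 1730), against 89.1 ± 26.0 in the 5hmC-bearing windows. Their G+C content was nearly the same at 54.7 ± 5.70% against 55.0 ± 4.51%. The ratio of observed to expected CGs was 0.736 ± 0.115 against 0.586 ± 0.117. Soft-masked repeat took up 12.7 ± 7.05% and 12.7 ± 8.16% of the bases. Windows share the DNA and are not replicates, so these SDs describe the spread between windows and no test is given.

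By chromosome, 6.24% of the CG-dense windows of chromosome 14 were 5hmC-poor, the lowest share, and 12.3% of those of chromosome 16, the highest. On chromosome 14 only 39.3% of the CG-dense windows reached the uTOP-seq minimum, against 61.2% or more on every other autosome, and its uTOP-seq reads per CG over all windows were also the lowest, at 0.729 a library. The part of this difference in the low share of chromosome 14 was not tested.

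Most of the windows held the start of a gene. The 5′ end of a protein-coding gene lay in 1399 of the 1730 (80.9%), against 6123 of 10907 5hmC-bearing windows (56.1%) and 392 of the 2632 windows low in both readouts (14.9%). Of the 331 without such a start, 200 lay within 2 kb of a start, 106 farther inside a gene body and 25 outside protein-coding genes. Starts came in pairs or more in 353 of the 1399 windows (25.2%), against 8.74% of the 5hmC-bearing windows with a start. In 237 (16.9%) the genes were divergent, with a gene of the minus strand starting to the left of a gene of the plus strand, against 310 (5.06%) of the 5hmC-bearing windows. In all, 1769 protein-coding genes started in 5hmC-poor windows, 18.2% of the 9695 whose start lay in a CG-dense window.

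The genes in 5hmC-poor windows were also compared with those in 5hmC-bearing windows along the distance from the start. In the 500 bases after the start, the relative level at 500 ng was 0.0128 for these genes and 0.224 for the 6676 genes in 5hmC-bearing windows, a comparison that the selection fixes. In the libraries that the selection did not use, it was 0.0120 against 0.207 (50 ng) and 0.0130 against 0.192 (5 ng) there. At 4 to 4.5 kb downstream, outside the selected windows, it was 1.46 against 1.95 with 500 ng, 1.49 against 1.88 with 50 ng and 1.59 against 1.88 with 5 ng. The uTOP-seq relative level, which the selection also set near the start, was 2.13 and 2.31 just after it, 2.86 and 2.69 at 0.5 to 1 kb upstream, and 2.46 and 2.10 at 1 to 1.5 kb upstream. The CG number per 500 bases peaked at 46.4 and 42.2.

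**Figure D2:**
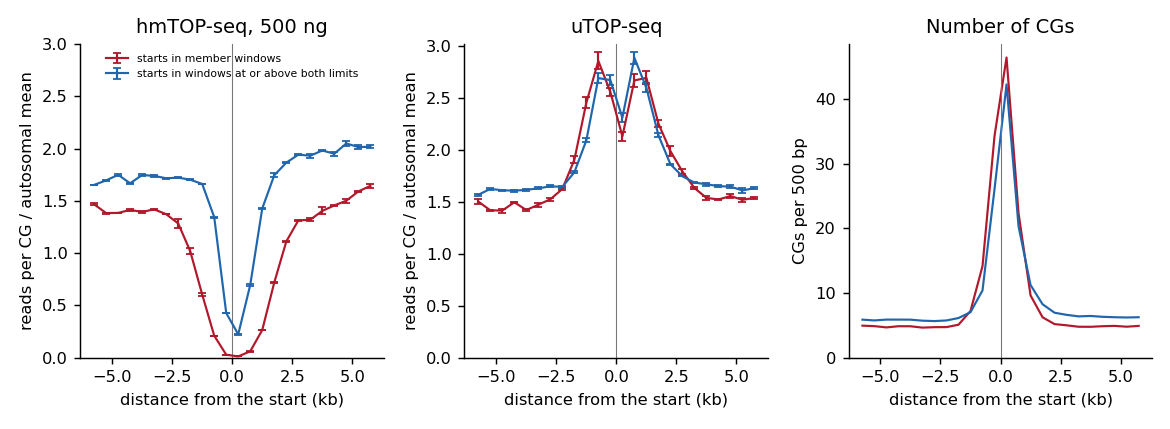
Profiles around gene starts in bins of 500 bases, for genes in 5hmC-poor windows (red) and in 5hmC-bearing windows (blue): hmTOP-seq at 500 ng (left) and uTOP-seq (middle) as reads per CG over the autosomal mean, with the SD over 2 and 3 libraries as bars, and CGs per 500 bases (right). The red hmTOP-seq line falls to 0.0128 just after the start where the blue line falls to 0.224, and the uTOP-seq lines stand at 2.13 and 2.31 there; both readouts near the start were set by the selection.

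Short sequence motifs were searched on both strands from 250 bases before to 50 bases after each start. CCGGAA, the core of ETS-family sites, was found at 667 of the 1769 starts in 5hmC-poor windows (37.7%), against 25.7% of the 6676 in 5hmC-bearing windows and 17.9% of all 20807 autosomal protein-coding starts. AAGATGGC, a core of YY1 sites, was found at 7.29%, 3.49% and 2.93%, and TGACGTCA, the palindrome bound by CREB, at 4.75%, 3.46% and 2.43%. The shares for CCAAT were 41.2%, 37.7% and 38.6%, and those for CACGTG 12.1%, 10.7% and 7.82%. GGGCGG, the GC box of SP and KLF factors, was at 71.1% and 68.2% of the starts in the CG-dense windows and at 43.7% of all. TATAAA was at 5.31% and 6.50% of those starts and at 12.7% of all. No motif of the list contains another, and a match is a string of letters, not a measured binding site. Each start was counted separately, so starts close together can share a match. Windows with 2 or more starts were commoner among the 5hmC-poor ones (25.2% against 8.74% of those with a start). Several motifs, that of ETS sites included, hold a CG. In the 500 bases before the start there were 34.3 CGs per gene against 26.1. The part of either in these shares was not tested.

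The genes at the windows were spread unevenly over gene families. Against the 18.2% of all genes with CG-dense starts, 29 of 65 cytosolic ribosomal protein genes (44.6%) started in 5hmC-poor windows. So did 3 of 8 pluripotency factors (37.5%), 5 of 14 genes of DNA methylation and its removal (35.7%), 11 of 39 replication-dependent histone genes (28.2%) and 5 of 19 housekeeping genes of metabolism and cytoskeleton (26.3%). Below the share of all genes were the Polycomb subunits with 3 of 24 (12.5%), the lineage transcription factors with 2 of 81 (2.47%) and the signalling ligands and inhibitors with 1 of 41 (2.44%). A further 4 of the 24 Polycomb starts were low in both readouts, as were 424 of the 9695 genes. With so few genes, 3 of 24 is not read as a difference from 18.2%. None of the listed 30 Hox genes, 22 imprinted genes, 11 germline genes or 8 clustered protocadherins started in a 5hmC-poor window. The lists are not complete: Ube3a, which is imprinted in neurons and was not listed, also started in a 5hmC-poor window. The 5 housekeeping genes were Vcp, Pkm, Ubb, Sdha and Tuba1b. Spry2, an inhibitor of receptor tyrosine kinase signalling that was not on the signalling list, started in a 5hmC-poor run as well. These counts describe the selection, depend on which genes were listed, and carry no test.

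**Figure D3:**
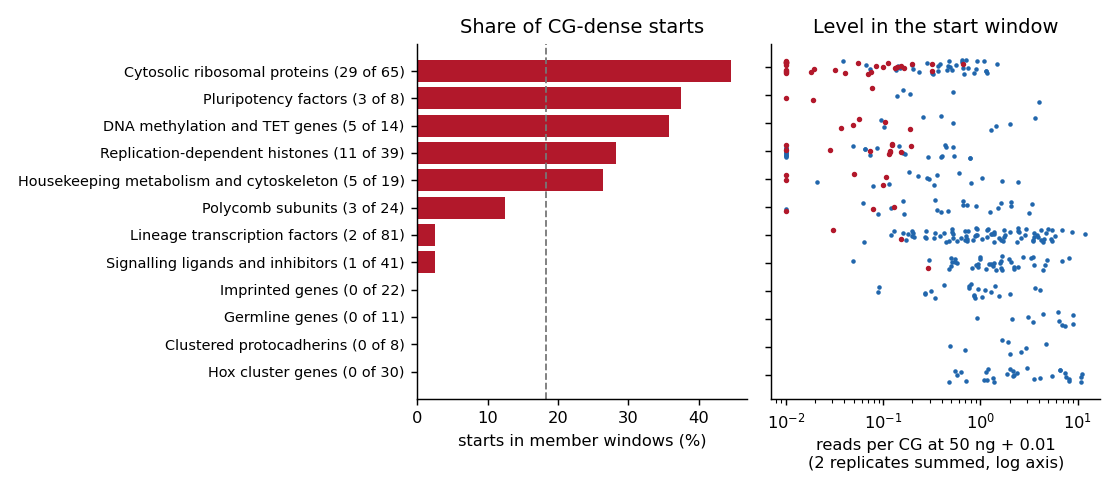
Left, share of the genes with CG-dense starts that start in a 5hmC-poor window, by gene list, with the count in brackets and a dashed line at the 18.2% of all protein-coding genes. Right, 5hmC reads per CG at 50 ng in the start window of each of these genes plus 0.01 on a log axis, with genes in 5hmC-poor windows in red and the rest in blue; the lists are in the same order, from the ribosomal proteins (29 of 65) at the top to the Hox genes (0 of 30) at the bottom.

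Ribosomal protein genes, which every cell transcribes at a high rate, had a median of 0.186 reads per CG at 50 ng over all 65 CG-dense starts, against 0.482 over the 9695 genes. Of the 29 in the selection, 11 had no read in either 50 ng library and 21 none from 5 ng. Over all 1730 5hmC-poor windows, 236 (13.6%) had none from 50 ng and 982 (56.8%) none from 5 ng. Among the 11, Rpl7a had 0 and 3 reads over 115 CGs at 500 ng, none from 5 ng, and 498, 475 and 362 uTOP-seq reads. Rps6, a subunit protein phosphorylated downstream of mTOR, had 4 and 1 reads over 121 CGs at 500 ng, 0 and 1 from 50 ng and none from 5 ng. Rpl26, outside the selection, was the highest of the list with 118 and 86 reads from 500 ng and 59 and 78 from 50 ng over 93 CGs. The list therefore ran from 0 to 1.47 reads per CG at 50 ng, all below the median of the Hox genes at 2.19. Near-identical processed copies of ribosomal protein genes exist in the genome, so reads of some members may have been split or dropped in mapping, and their counts are uncertain to that extent.

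Of the pluripotency factors, Sox2, which pairs with Oct4 on DNA, had 2 and 0 reads from 500 ng and none at 50 or 5 ng over the 148 CGs of its start window, with 506, 383 and 350 uTOP-seq reads. Sall4, a zinc-finger factor of the same network, had 8 and 12 from 500 ng and 1 and 0 from 50 ng over 110 CGs, and Klf5 had 4 and 5, then 11 and 0, over 163. Neither Sall4 nor Klf5 had a read at 5 ng. Prdm14, a zinc-finger regulator of naive pluripotency, was the highest of the 8 with 255 and 197 reads from 500 ng and 191 and 139 from 50 ng over 83 CGs.

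Among Polycomb genes, the starts of Ezh2, the methyltransferase of PRC2, its partner Suz12 and the histone-binding Rbbp4 were 5hmC-poor. Ezh2 had 1 and 1 reads from 500 ng and 10 and 2 from 50 ng over 174 CGs, and Suz12 had 9 and 10, then 3 and 16, over 161. At 5 ng Ezh2 had none and Suz12 0 and 4. Rbbp4 had 1 and 2 from 500 ng over 143 CGs and none at the lower inputs. Of the genes that make, read or remove methylation, Tet2 (9 and 10, 21 and 3, and 3 and 10 over 134 CGs as the input fell), Mbd3, Gadd45a, Lig3 and Apex1 were 5hmC-poor. Uhrf1, which guides the maintenance methyltransferase, had 197 and 157, then 135 and 123, over 71 CGs.

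Many lineage transcription factors and Hox genes are known to be bivalent in embryonic stem cells, with Polycomb and activating marks on the same islands. The lineage factors in the selection were Foxd3 and Zic2. These libraries hold neither expression nor histone marks, so a link of either to the 5hmC level was not tested. Zic2 had 15 and 8 reads from 500 ng and 2 and 2 from 50 ng over 195 CGs, and Foxd3 20 and 26, then 15 and 18, over 233. Neither had a read at 5 ng. Foxd3 stood close to the limit, at 0.197 per CG. Of the other lineage factors, Gbx2 was the lowest at 50 ng with 1 and 9 reads over 187 CGs, and it had 23 and 34 from 500 ng. Hand1 was the highest with 582 and 556 reads from 500 ng and 412 and 357 from 50 ng over 64 CGs. The lowest of the 30 Hox genes, Hoxd13, had 38 and 47 reads from 500 ng and 32 and 29 from 50 ng over 130 CGs, and Hoxb13, the highest, had 532 and 495, then 270 and 397, over 60.

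The only signalling gene of its list in the selection was Jag1, a Notch ligand, with 7 and 21 reads from 500 ng, 25 and 21 from 50 ng, and 21 and 31 from 5 ng over 164 CGs. The window of Jag1 thus gave no fewer reads from 5 ng than from 500 ng. Wnt1 was the highest of that list with 383 and 359, 293 and 208, and 146 and 70 over 62 CGs. The 11 germline genes had a median of 6.32 reads per CG at 50 ng and ran from 0.912 at Syce2 to 9.03 at Mov10l1.

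The histone genes in the selection lie on chromosome 13 in the large histone cluster, and several are neighbours in the same window, so they are not separate observations. Hist1h3g had 0 and 2 reads from 500 ng and 2 and 0 from 50 ng over 110 CGs, and Hist1h1c 5 and 9, then 5 and 12, over 92. A further 13 of the 39 CG-dense histone starts were low in both readouts, and the median uTOP-seq level of the list was 5.15 reads per CG against 8.31 over all genes. Histone genes of a kind are near-identical copies, so their counts are uncertain; the part of this in their values was not tested.

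A whole gene fitted inside the selected windows in 22 cases. They include Pcbp1, an intronless gene for an RNA-binding protein, of 1830 bp, Arf6, a small GTPase of 1634 bp, Ier2, an immediate early gene of 1522 bp, Exosc6, a subunit of the RNA exosome, of 1326 bp, and the ribosomal protein gene Rps27 of 1130 bp. A further 7 are named histone genes of the list. The median length of the 22 was 682.5 bp, whereas genes that start in 5hmC-poor windows had a median of 26882 bp and those that start in CG-dense windows at or above the limit 24872.5 bp. A gene had to be shorter than its run to be counted, so the short median was fixed in advance. The same count for other CG-dense windows is not given, so the 22 cannot be called many or few.

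The 1730 windows formed 1674 runs, of which 1624 were single windows, 44 had 2 windows and 6 had 3. The 3-window runs lay at Brd2 with H2-DMa, Sin3a, Spry2, Ier2, Mycn and Arrdc3. The number of such long runs is small and depends on where the 2 kb grid begins: with the grid moved by 1 kb it was 2 in place of 6, and without either 500 ng library it was 3. Beyond 92.3% of the 3348 edges lay a window with under 60 CGs, and beyond 6.42% a 5hmC-bearing window.

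Brd2 codes for a bromodomain reader of acetylated histones. Its run (chr17:34118001-34124000, 413 CGs), which also holds the start of H2-DMa, gave 26 and 17 reads from 500 ng, 15 and 6 from 50 ng, and 4 and 0 from 5 ng, with 1339, 1172 and 917 uTOP-seq reads. Sin3a, the scaffold of a histone deacetylase complex (chr9:57072001-57078000, 331 CGs), gave 13 and 20, 14 and 26, and 2 and 0. Spry2, an inhibitor of receptor tyrosine kinase signalling (chr14:105894001-105900000, 315 CGs), gave 12 and 11, 7 and 6, and 0 and 0. None of these 3 runs had more than 26 labelled reads in any library.

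Ier2 (chr8:84660001-84666000, 278 CGs) gave 22 and 19 reads from 500 ng, 19 and 2 from 50 ng and none from 5 ng. Its uTOP-seq level of 16.1 reads per CG was the highest of the 12 longest runs, and that of Arrdc3, at 6.83, among the lower ones. Mycn, a MYC-family transcription factor (chr12:12938001-12944000, 255 CGs), gave 18 and 16, 8 and 34, and 13 and 19, and was the only 3-window run with more than 11 reads in either 5 ng library. Arrdc3, an arrestin-family protein (chr13:80882001-80888000, 240 CGs), gave 1 and 7, 24 and 5, and 11 and 0.

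Of the 2-window runs, those with the most CGs were at Klf13, Ptma, Smad7, Igf2bp1, Pcbp1 and at the paired starts of Hnrnpa2b1 and Cbx3. Hnrnpa2b1 codes for an RNA-binding protein and Cbx3 for HP1 gamma, and the 276 CGs of their run (chr6:51468001-51472000) gave 2 and 3 reads from 500 ng, 1 and 0 from 50 ng and none from 5 ng. Igf2bp1, an mRNA-binding protein, gave 6 and 2, 1 and 4, and 0 and 5 over 298 CGs. Klf13 gave 13 and 13, 25 and 5, and 0 and 2 over 348 CGs. Named after their values were seen, Sox2, Myc and Socs2 also had 2-window runs, with 250, 237 and 271 CGs. In the 2 kb around them the level at 500 ng was 0.232 reads per CG at Sox2 and 2.47 at Myc.

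At the edges of the runs, 5hmC rose from almost nothing to above the genome mean within about 1.5 kb. At 500 ng the relative level was 0.0208 from 1000 to 500 bases inside the edge, which the selection fixes. The libraries that the selection did not use gave 0.0245 (50 ng) and 0.0286 (5 ng) there. Outside the edge, the level at 500 ng was 0.371 in the first 500 bases, 0.871 in the next 500, and 1.36 from 1.5 to 2 kb. It stayed between 1.46 and 1.65 in every bin from 2 to 10 kb. The 5 ng libraries gave 0.411 and 0.963 in the first pair of bins outside, and from 2 kb on 1.49 to 1.63. The uTOP-seq level moved the other way, from 2.56 in the first 500 bases outside to 1.71 at 1.5 to 2 kb and 1.45 at 9.5 to 10 kb. A rise of 5hmC at the edge was also seen in CG-dense runs at or above the limit. At 500 ng it went from 0.855 at 1000 to 500 bases inside to 1.64 and 1.90 in the first pair of bins outside.

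In the 2 kb outside the runs there were 1.29 and 1.28 reads per CG at 500 ng, 0.957 and 0.921 from 50 ng, and 0.646 and 0.679 from 5 ng. From 8 to 10 kb outside there were 2.53 and 2.46, 1.76 and 1.70, and 1.12 and 1.18. The nearer stretch was lower in all 6 libraries, with a mean log2 ratio of −0.88 ± 0.07 (SD, n = 6; exact two-sided sign-flip permutation test, p = 0.031, the smallest possible). The 500 ng libraries also chose the runs. In the libraries that the selection did not use, the ratio was −0.88 and −0.89 (50 ng) and −0.80 and −0.79 (5 ng). With these 4 libraries alone the exact permutation test cannot go below p = 0.13, so they cannot carry the call. The size of this step depends on where the edge is put, since the grid cuts CG-dense stretches: with each edge moved out to where a 250 bp step holds fewer than 5 CGs, the ratio was −0.27. Over flanks with fewer than 60 CGs it was −0.59, and with the first 1 kb alone −1.44.

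The surroundings of the 5hmC-poor runs also held less 5hmC than those of CG-dense windows at or above the limit, which gave 2.84 and 2.77 reads per CG in the same 2 kb at 500 ng, 1.96 and 1.87 from 50 ng, and 1.25 and 1.27 from 5 ng. The difference was −1.03 ± 0.09 on the log2 scale (SD, n = 6), with the same sign in 6 of 6 libraries and p = 0.031 in the exact permutation test. The 500 ng libraries also divided the runs, and over the other 4 libraries the difference was −0.98 with p = 0.13 in the same exact permutation test, the smallest possible there, so the call is lost. It was −0.49 with the edges moved to the end of the CG-dense stretch. The flanks had 28.2 CGs per edge on average, against 26.7 for the other runs, with medians of 21 and 24.

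**Figure D4:**
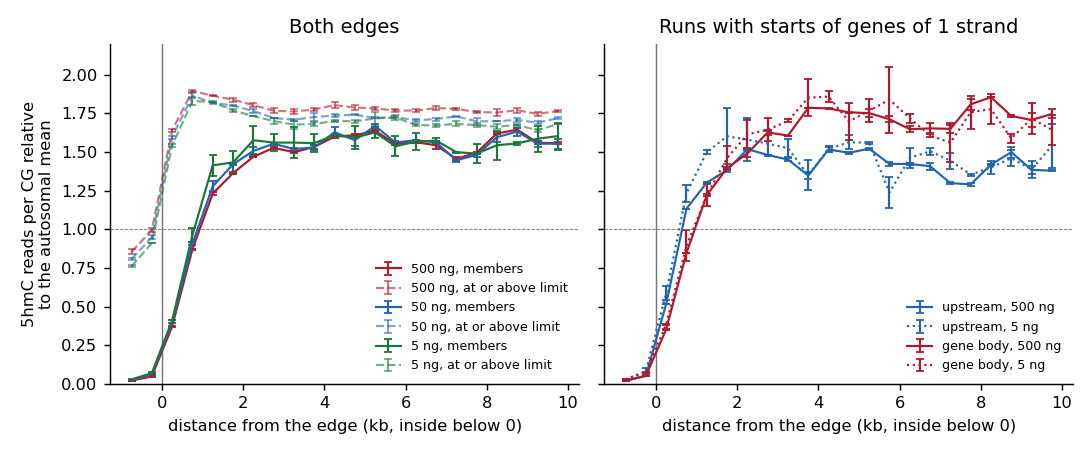
Relative level of 5hmC (reads per CG over the autosomal mean) in bins of 500 bases from 1 kb inside to 10 kb outside the edges of runs, as means with the SD over 2 replicates. Left, both edges of 5hmC-poor runs (solid) and of runs at or above the limit (dashed) at 3 inputs: the solid lines rise from near 0 to 0.371 at 500 ng in the first bin outside and level off near 1.5. Right, 5hmC-poor runs with gene starts of 1 strand only, upstream (blue) and gene-body (red) edges at 500 ng (solid) and 5 ng (dotted): blue is above red in the first 1 kb and below it beyond 4 kb.

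The 2 sides of a gene start differed, and the order turned with distance. For the 1045 runs with protein-coding starts of a single strand, the 2 kb on the upstream side gave 1.52 and 1.50 reads per CG at 500 ng, 1.13 and 1.06 from 50 ng, and 0.772 and 0.831 from 5 ng. The 2 kb on the gene-body side gave 1.32 and 1.30, 0.974 and 0.959, and 0.627 and 0.649. The gene-body side was lower in 6 of 6 libraries, with a mean log2 ratio of −0.24 ± 0.08 (SD, n = 6; exact permutation p = 0.031). The 500 ng libraries also chose these runs. In the libraries that the selection did not use, the ratio was −0.21 and −0.15 (50 ng) and −0.30 and −0.36 (5 ng). With these 4 libraries alone the exact permutation test cannot go below p = 0.13, so they cannot carry the call. With the edges moved to the end of the CG-dense stretch the ratio was −0.18. In the first 1 kb alone the difference was −0.45. From 4 to 10 kb, a stretch chosen after the profile was seen, the gene-body side was the higher in 6 of 6 libraries, by 0.26 ± 0.03. The turn was not particular to the 5hmC-poor runs. In CG-dense runs at or above the limit, the relative level at 500 ng was 1.66 upstream and 1.53 on the gene-body side in the first 500 bases. It was 1.82 and 1.95 in the next 500, and 1.65 and 2.01 at 4 to 4.5 kb.

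Single runs differed widely in what surrounded them. Over the 1646 runs with at least 20 CGs in the 2 kb outside both edges, the median was 2.18 reads per CG at 500 ng (replicates summed), with 0.429 at the 5th and 6.63 at the 95th percentile. The flanks were above the run itself in 1641 runs by the 500 ng libraries, which the selection nearly fixes, in 1631 by those of 50 ng and in 1512 by those of 5 ng. The median was 2.41 for runs with starts on 1 strand, 2.0 for those with starts on both strands, and 1.76 for those without a protein-coding start. Among the gene lists, the flanks of the 29 ribosomal protein runs had a median of 2.28, those of the 5 runs at genes of DNA methylation 4.37, and those of the 8 histone runs 0.880.

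**Figure D5:**
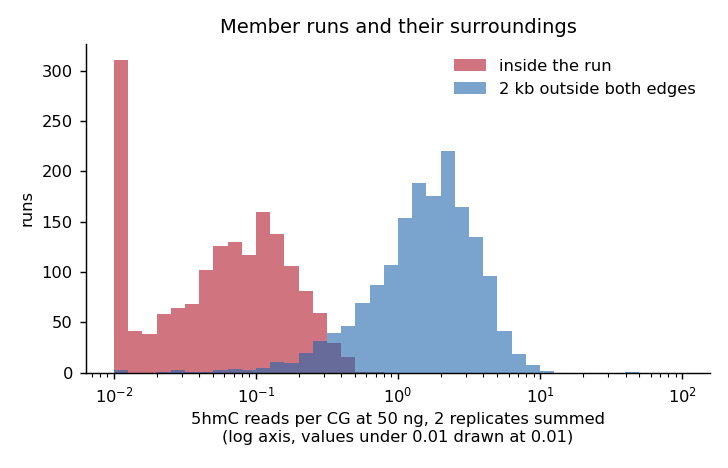
Number of 5hmC-poor runs (1646 with at least 20 CGs outside) by 5hmC reads per CG at 50 ng, summed over 2 replicates on a log axis, inside the run (red) and in the 2 kb outside both edges (blue). Runs at 0 are drawn at 0.01; the outside values centre on a median of 1.67, and they exceed the inside value in 1631 runs.

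The highest flank belonged to the divergent pair Aida and Brox (chr1:183296001-183298000), at 52.9 reads per CG at 500 ng, 45.7 from 50 ng and 41.3 from 5 ng. Nearly all of it came from the 27 CGs to the right of the window, with 1187 and 1257 reads from 500 ng, 1013 and 1076 from 50 ng and 938 and 1001 from 5 ng. A single CG 1418 bp outside took 30.6% of the 2484 flank reads from 500 ng, and 5 CGs took 88.1%. This flank fell little from 500 to 5 ng, whereas the median flank fell from 2.18 to 1.09. The controls had 1 read there in all. The uTOP-seq libraries gave 576, 423 and 301 reads over the 27 CGs on the right, and 138, 119 and 74 at the single CG named above. Their autosomal means were 1.37, 1.11 and 0.972 reads per CG, so this flank was high in both readouts.

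Among the next flanks were those of Exosc6 at 15.3 reads per CG, Pias3, a SUMO ligase, at 14.0, a window near Fblim1 at 13.6, Pank2, a kinase of coenzyme A synthesis, at 13.1, and Rnf8, a ubiquitin ligase of the DNA damage response, at 12.5. Timeless, a replication fork factor, stood at 11.4. At Exosc6, 324 and 322 of the 500 ng reads lay to the left of the window, on the upstream side, over 38 CGs, and 59 and 59 to its right over 12. At Timeless the left, upstream side held 332 and 347 reads over 40 CGs and the right side 49 and 34 over 27. In these flanks, 28.5% to 65.8% of the 500 ng reads came from 5 CGs.

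At the low end, a window near Hist1h4d, inside the histone cluster, had 1 and 0 reads from 500 ng over 36 flanking CGs, fewer per CG than the window itself. Near Cdk13 and near Fgfr2 the window is the left end of a longer CG-dense stretch, with 250 CGs to its right at Cdk13 (3 and 2 reads from 500 ng) and 209 at Fgfr2 (1 and 0). Those near Ankrd17 and Sfpq also adjoin a CG-rich stretch, of 135 CGs on the right and 111 on the left. Cacul1 had 0 and 1 reads over 24 flanking CGs, Hmbox1 2 and 2 over 41, and Ube3a, a ubiquitin ligase imprinted in neurons, 3 and 0 over 23. At 50 ng the flanks of Ube3a gave 7 and 12 reads, so its low rank at 500 ng was not seen at that input.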

How the data were processed

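The authors trimmed and filtered the reads, mapped them to mm10, removed duplicates with the same start and length, and deposited whole read counts per CG, with strands merged for hmTOP-seq and kept apart for uTOP-seq. The aligner is not given in the sources used here. Positions were found to be 0-based, since the C of all 20383623 autosomal CGs matched GRCm38 that way, and are given 1-based. Windows hold positions with the same integer part of position over 2000. Gene starts are 5′ ends in GENCODE vM21. Counts were not normalised; ratios were taken within libraries. Comparisons used the exact two-sided sign-flip permutation test over libraries (scipy 1.17.1, numpy 2.4.6, pandas 2.3.3). On simulated counts only the recovery of preset log2 ratios was checked, not the p-values. CGs of 5hmC-poor windows were left out of flanks. The controls are the libraries made without BGT. The windows, gene lists and tests were chosen with earlier results of these data known. Genes were named from the longest runs, the highest and lowest flanks, the extremes at 50 ng, the windows next to the limit, and up to 4 per gene list by level or as textbook examples, with all members of short lists. Alternatives changed the grid, limits, replicates, coverage scale and flanks. A few genes that this rule selects are not reported here.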

Additional observations from a re-analysis of the deposited data

How the results depend on the processing

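In 88 refits, direction and side of the threshold or size held in 55. Part of this count was fixed by the number of libraries. All 9 refits of 5hmC-poor against other CG-dense windows kept their side, since 4 or fewer libraries cannot pass 0.05. For the flank comparisons, every refit without 1 library lost the call, since 5 libraries cannot pass 0.05 either. The number of 5hmC-poor windows (1730) was 859 at a 5hmC limit of 0.1, 3003 at 0.4 and 911 at a uCG minimum of 8. Leaving out a library of 500 ng or uTOP-seq gave 1713 to 1772. The number of runs of 3 or more windows (6) was 2 with the grid shifted by 1 kb, 1 with a minimum of 80 CGs, 1 and 10 at 5hmC limits of 0.1 and 0.4, 2 at a uCG minimum of 8, and 3 to 6 without 1 library. The share of windows with a protein-coding start (80.9%) was 84.4% at a uCG minimum of 8, 94.2% counting any transcript start and 91.0% counting starts within 1 kb, and 80.4% to 81.0% without 1 library.

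Without 1 library the log2 ratio was −4.20 to −4.08 for 5hmC-poor against other CG-dense windows, −0.90 to −0.86 for the near against the far flank, −0.26 to −0.22 for gene-body against upstream side, and −1.05 to −1.0 for the flanks of 5hmC-poor against other runs. With 5 libraries the exact permutation test cannot go below p = 0.0625, and with 3 it cannot go below 0.25. The last ratio was −0.98 over the 4 libraries of 50 and 5 ng alone, where the exact permutation test gives p = 0.13, the smallest possible. Gene-body against upstream turned to 0.26 at 4 to 10 kb, an alternative chosen, like the moved edges, after seeing the data. No paired analysis was possible because the replicate numbers cannot be added as a block: this concerns pairing of libraries by replicate number only. All sign-flip tests reported here are themselves paired, since each compares regions within the same library. Depth limits single windows most at 5 ng, where 982 had no read.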
